A study of Mus musculus with 3 samples.

Results

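The cells described here were satellite glial cells (SGCs) of mouse lumbar dorsal root ganglia (DRGs) with little Fabp7. They contained transcripts of at least 3 of 8 marker genes, a list that includes Egr3 and Ednrb, and neither of these was required. The cells were selected on their own UMI counts, and a UMI (unique molecular identifier) marks 1 captured mRNA molecule. A cell was a member if at least 3 of 8 marker genes (Egr3, Ednrb, Itgb3, Col11a1, Col27a1, Lgr5, Efemp1 and Grik2) had a UMI, and if Fabp7 had at least 1 UMI but made up less than 0.5% of the UMIs of the cell. Cells with any UMI of Pou3f1, Pecam1 or Cdh5 were left out. So were cells with more than 1 UMI of Mag, Prx and Ncmap together or of Snap25 and Rbfox3 together, and cells with 10 or more UMIs of 7 interferon-response genes (Ifi27l2a, Isg15, Ifit1, Ifit3, Rtp4, Bst2 and Oasl2). Cells entered only with 500 or more genes and no more than 20% mitochondrial UMIs, which left 9662, and 537 of these were members. The naïve library held 115 of them, the library of 7 days after injury 168, and the library of 14 days after injury 254.

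SGCs wrap the cell bodies of sensory neurons in the ganglion and share their developmental origin, the neural crest, with Schwann cells. They take up potassium through the channel Kcnj10 and glutamate through the transporter Slc1a3, convert glutamate with glutamine synthetase (Glul), and are coupled by gap junctions built from connexins. Fabp7, a fatty acid binding protein of the nervous system, is commonly used to recognise them, whereas Ednrb, the endothelin B receptor, is found in several kinds of glia of neural crest origin, and Egr3 is a transcription factor encoded by an immediate early gene.

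The study compared naïve ganglia with ganglia 7 and 14 days after a nerve injury. Per the labels and the design text, each library pooled 8 DRGs (L3 and L4) from 2 male C57BL/6J mice 13 weeks old, and the injury was a spared nerve injury of both sides. The study's methods name female mice of another age range for its animals in general, and its text calls the injury behind the single cell data a partial ligation of the sciatic nerve in one place and spared nerve injury in another. The labels were followed here. The ganglia were dissociated with collagenase and dispase, and the cells were captured in droplets with 10x 3′ chemistry. Each condition was 1 library, so no test between conditions was possible, animals within a library could not be separated, and condition and library cannot be told apart. All intervals are 95% intervals and cover counting error only.

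The upstream sequences of 3 genes are shown because the results return to them: Hes5, a target of Notch signalling that was nearly absent from the members, Cxcl10, which had no UMI in naïve members and was present after injury, and Hspa1a, the heat shock gene furthest below naïve members after injury. Each is the stretch of 250 bases before the annotated start of the gene, from RefSeq on GRCm38.p6, read 5′ to 3′ on the strand of the gene. Capitals mark matches on either strand of TGGGAA (the core bound by RBPJ, the DNA-binding partner of Notch) in Hes5, of GAAANNGAA (a short form of the interferon-stimulated response element) in Cxcl10, and of GAANNTTC (the core of the heat shock element) in Hspa1a.
Hes5, chr4:154960673-154960922, plus strand: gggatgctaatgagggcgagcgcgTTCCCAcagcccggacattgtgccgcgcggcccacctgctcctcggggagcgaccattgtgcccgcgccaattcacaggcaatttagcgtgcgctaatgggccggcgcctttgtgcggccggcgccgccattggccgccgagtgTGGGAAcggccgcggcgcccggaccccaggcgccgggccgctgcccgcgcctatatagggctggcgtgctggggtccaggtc
Cxcl10, chr5:92348890-92349139, minus strand: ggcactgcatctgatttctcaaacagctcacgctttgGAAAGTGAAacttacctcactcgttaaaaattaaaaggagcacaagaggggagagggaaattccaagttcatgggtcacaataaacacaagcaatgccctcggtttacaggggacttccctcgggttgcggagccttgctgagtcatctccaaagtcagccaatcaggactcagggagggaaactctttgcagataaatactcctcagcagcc
Hspa1a, chr17:34972157-34972406, minus strand: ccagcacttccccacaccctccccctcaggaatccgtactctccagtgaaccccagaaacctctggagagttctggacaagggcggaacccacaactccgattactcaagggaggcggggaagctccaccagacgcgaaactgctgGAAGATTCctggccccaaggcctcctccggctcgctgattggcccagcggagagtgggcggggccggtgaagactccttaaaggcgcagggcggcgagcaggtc
The Hes5 window held 2 matches, which began 226 and 82 bases before the start, the Cxcl10 window 1 match at 213 bases, and the Hspa1a window 1 match at 104 bases. Of 32851 such windows in the reference, 21.6% held TGGGAA, 7.13% held GAAANNGAA and 6.69% held GAANNTTC, so that each motif is common and a match describes only the letters in the window.

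The deposited libraries held 3748, 3281 and 4908 barcodes with 23107376, 22343246 and 36550911 UMIs in the naïve, 7-day and 14-day library. The median naïve member had 3690 UMIs and 1825 genes, the median 7-day member 5202.5 UMIs and 2303 genes, and the median 14-day member 5271 UMIs and 2361 genes. Members were thus deeper after injury, as were all cells past the filter (medians of 3072, 4010.5 and 4199 UMIs), and shares of cells are therefore also given after thinning each cell to 3000 UMIs. Libraries shared 9 barcodes by letters, 8 of them among cells past the filter and 0 among members. Mitochondrial UMIs made up a median of 13.1%, 14.7% and 15.5% of the UMIs of members.

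Members made up a larger share of cells in both injured libraries than in the naïve library. They were 3.65% of naïve cells (interval 3.02% to 4.36%), 6.26% at 7 days (5.38% to 7.25%) and 6.64% at 14 days (5.87% to 7.47%). The 7-day and 14-day intervals overlapped, and both lay above that of the naïve library. Cells with at least 3000 UMIs were thinned to that number and selected again, after 1523, 879 and 1143 shallower cells had been left out. Of the thinned cells, 5.71% (4.63% to 6.95%), 7.99% (6.78% to 9.34%) and 8.98% (7.92% to 10.1%) were members. The naïve and 7-day intervals then overlapped, and the 14-day interval lay above the naïve one. Before thinning, 4.79%, 7.76% and 8.53% of the same cells were members. Under a stricter filter (1000 or more genes, no more than 10% mitochondrial UMIs) the order did not hold: 21, 16 and 16 members remained, or 1.56%, 1.48% and 1.17% of cells.

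The share of satellite glia that passed every limit other than that on Fabp7 differed less between libraries. Cells with at least 3 markers and any Fabp7 level from 1 UMI upward were 12.0% of naïve cells (10.8% to 13.1%), 13.3% at 7 days (12.1% to 14.7%) and 12.1% at 14 days (11.1% to 13.1%). Among them, members made up 30.5% when naïve (25.9% to 35.4%), 46.9% at 7 days (41.7% to 52.2%) and 54.98% at 14 days (50.3% to 59.6%). The median of these glia had 0.767% Fabp7 among its UMIs when naïve, 0.564% in the 7-day and 0.425% in the 14-day library. Pooled over cells, Fabp7 made up 1.02%, 0.999% and 0.806% of their UMIs, so the libraries were closer to each other in the pooled level than in the median.

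**Figure D1:**
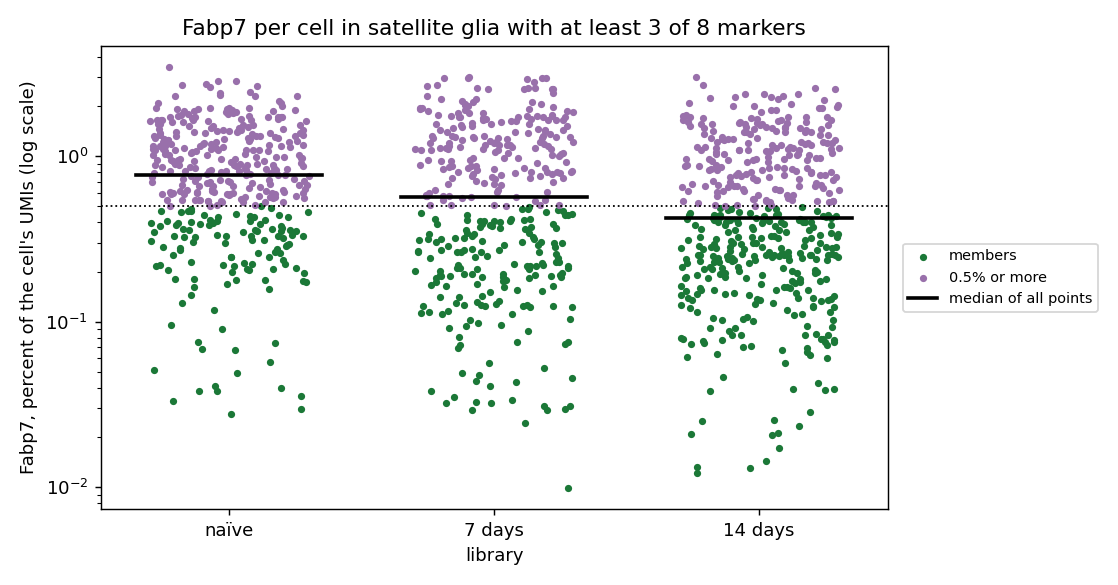
Fabp7 as a percentage of the UMIs of each cell (log axis) in the 377 naïve, 358 7-day and 462 14-day satellite glia with at least 3 of the 8 markers, 1 point per cell with random sideways spread. Points under the dotted line at 0.5% are the members, and the bar of the median of all points is at 0.767%, 0.564% and 0.425%.

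The Fabp7 limit cut through a continuous range. The highest member values were 0.498%, 0.495% and 0.494% of UMIs in the naïve, 7-day and 14-day library, and the lowest values just outside were 0.501%, 0.503% and 0.5001%. From 0.45% to under 0.5% there were 8, 7 and 10 members, and from 0.5% to under 0.55% there were 17, 9 and 16 cells that met every other limit. At the other end, 11, 18 and 15 members had a single Fabp7 UMI. Near the marker limit, 24, 29 and 41 members had exactly 3 markers, and 33, 17 and 55 cells with 2 markers met every other limit. Members with all 8 markers numbered 5, 14 and 14, and they were the deepest, with median UMIs of 9938, 8816.5 and 10017. The limit on Pou3f1, a transcription factor of immature Schwann cells, by itself left out 139, 89 and 135 cells, the marker limit 111, 158 and 211, and the interferon limit 20, 8 and 10.

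Ednrb was the most frequent of the 8 markers in members. It had a UMI in 97.4% of naïve members, 94.0% at 7 days and 92.5% at 14 days, at a summed level of 1924, 2366 and 1989 CPM (counts scaled to a total of 1000000 UMIs). Col27a1, a fibrillar collagen, was second with 67.8%, 81.0% and 81.5% of members. The matrix protein gene Efemp1 was present in 62.6%, 68.5% and 73.2%, and Lgr5, a receptor for R-spondins that raises Wnt signalling, in 54.8%, 61.9% and 61.8%. The integrin subunit gene Itgb3 was present in 60%, 59.5% and 57.5%, the collagen gene Col11a1 in 47.8%, 52.4% and 57.1%, and the kainate receptor gene Grik2 in 34.8%, 63.1% and 54.3%. Egr3 was among the least frequent, in 44.3%, 32.7% and 30.7% of members, and its summed level was 267, 159 and 124 CPM. Thus most members had no Egr3 UMI, and the Egr3 level was lowest at 14 days.

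Egr3 and Ednrb were present in other satellite glia too. Cells that met the same exclusion limits but had at least 0.5% Fabp7 and any number of markers, here called Fabp7-high SGCs, numbered 303, 200 and 230, with median UMIs of 5724, 8418 and 8716.5. Ednrb was present in 95.7%, 98.0% and 97.4% of them and Egr3 in 46.5%, 33.5% and 28.7%, against 97.4%, 94.0% and 92.5% and 44.3%, 32.7% and 30.7% of the members. After thinning to 3000 UMIs, Egr3 was present in 34.9%, 25.5% and 22.2% of members and in 30.2%, 14.7% and 15.5% of Fabp7-high SGCs. Per UMI, Egr3 had 267, 159 and 124 CPM in members against 163, 65.7 and 84.5 CPM, a log2 ratio of 0.71 (0.417 to 1.001), 1.26 (0.93 to 1.63) and 0.54 (0.25 to 0.85). These values are a description, since members had to have 3 markers and Fabp7-high SGCs were taken with any number. Vascular cells were those with at least 2 UMIs of Pecam1 and Cdh5, and they had median UMIs of 4609, 5646 and 6285.5. The 8 markers were present in 1.33% to 15.3% of them. Whether these UMIs came from free RNA or from the vascular cells themselves was not tested. Ednrb was the most frequent there too, at 10.6%, 12.9% and 15.3%, which dropped to 7.15%, 7.58% and 5.33% with thinning.

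**Figure D2:**
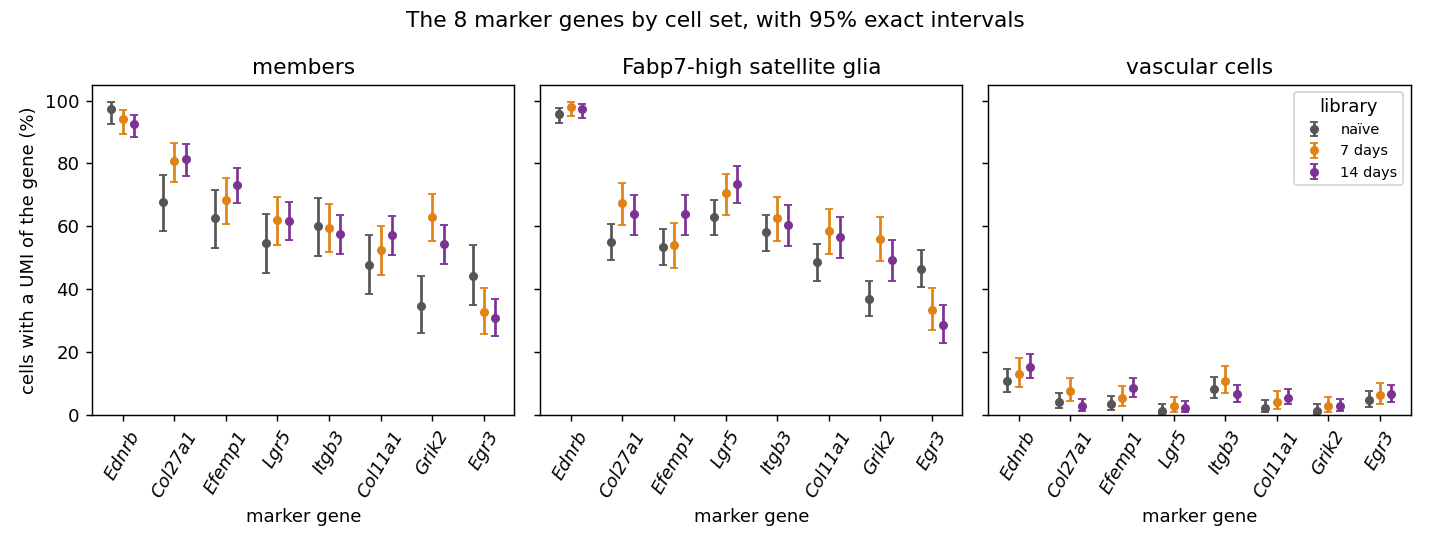
Percentage of cells with a UMI of each of the 8 marker genes in members, Fabp7-high SGCs and vascular cells, with exact 95% intervals and 1 colour per library. Ednrb is above 92% in every library in members and in Fabp7-high SGCs, and every value in vascular cells is at or below 15.3%.

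Beyond Fabp7, members differed from Fabp7-high SGCs in genes of several kinds, and because the cells were chosen by their counts these differences are a description. Of 8880 genes that reached 10% of cells in either set in any library, 47 (0.529%) were at least 2-fold higher in members in all 3 libraries and 81 (0.912%) at least 2-fold lower. The potassium channel gene Kcna1 had 426, 555 and 531 CPM in members and 91.7, 74.6 and 129 CPM in Fabp7-high SGCs, and it was present in 62.6%, 79.2% and 73.2% of members. Kcna1 was thus a widespread difference. Fgl2, which encodes a fibrinogen-like protein, had 110, 131 and 210 CPM in members against 19.8, 12.6 and 23.5 CPM. Gjc3, a connexin gene of glia, had 636, 686 and 740 CPM in members, a log2 ratio of 1.45, 1.51 and 1.31. The laminin receptor subunit gene Itgb4 was higher by 1.34, 1.45 and 1.65, and Nav1, which encodes a neuron navigator protein, by 2.98, 2.45 and 2.34.

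Other genes on the higher side were carried by a minority of members. Scn7a, the sodium channel gene that marks non-myelinating Schwann cells, had 172, 259 and 201 CPM in members against 29.7, 17.3 and 21.6 CPM, but only 18 of 115, 32 of 168 and 52 of 254 members had a UMI. Ngfr, the low-affinity neurotrophin receptor gene, was higher by 3.36, 3.18 and 3.18 on the log2 scale and present in 6, 14 and 33 members. The fibroblast gene Dcn was higher by 5.85, 5.80 and 2.65 and present in 2, 5 and 36 members, the highest cell of each library holding 102, 203 and 277 of its 181, 372 and 1313 UMIs. Without the members that had at least 3 Scn7a UMIs, 27 genes were higher and 76 lower in all 3 libraries (added once the data had been seen).

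The genes lower in members included targets of Notch signalling, a contact-dependent pathway that takes part in the development of glia. Hes5, whose upstream window with 2 TGGGAA matches is given above, had 1, 0 and 7 UMIs in members and 94.2, 66.2 and 70.5 CPM in Fabp7-high SGCs, where 26.4%, 25.5% and 23.04% of cells had a UMI. Only 1 of 115, 0 of 168 and 4 of 254 members had a Hes5 UMI, where 0 of 168 allows a share of up to 1.79% of cells with a UMI at a floor of 3 counts. Nrarp, a feedback inhibitor of the pathway, was lower in members by 2.37, 3.56 and 3.38 on the log2 scale, at 34.1, 13.2 and 13.4 CPM against 180, 166 and 148 CPM. Heyl was lower by 1.70, 1.76 and 3.03. From a list of 21 Notch pathway genes that was written after these values had been seen, 14 passed the filter, 0 were at least 2-fold higher and 3 at least 2-fold lower in all libraries. The receptor gene Notch1 was at a similar level in both sets, with log2 ratios of 0.04, -0.40 and -0.24.

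Of the listed genes of potassium and glutamate handling 13 passed the filter, and 4 of them (Kcnj16, Glul, Slc1a2 and Aqp4) were at least 2-fold lower in members in all libraries. The water channel gene Aqp4 had 15.2, 13.2 and 16.6 CPM in members and 90.7, 93.6 and 100.05 CPM in Fabp7-high SGCs. Glul had 284, 205 and 229 CPM in members against 957, 952 and 783 CPM. Outside this list, the cadherin gene Cdh15 had 1, 1 and 2 UMIs in members, whereas 23.1%, 26.5% and 24.3% of Fabp7-high SGCs had a UMI. The Wnt antagonist gene Sfrp5 was lower by 2.23, 2.49 and 2.04, and the metallothionein gene Mt3 by 2.13, 2.51 and 2.55. Vascular cells had more Glul than either set, at 1832, 2576 and 1924 CPM.

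**Figure D3:**
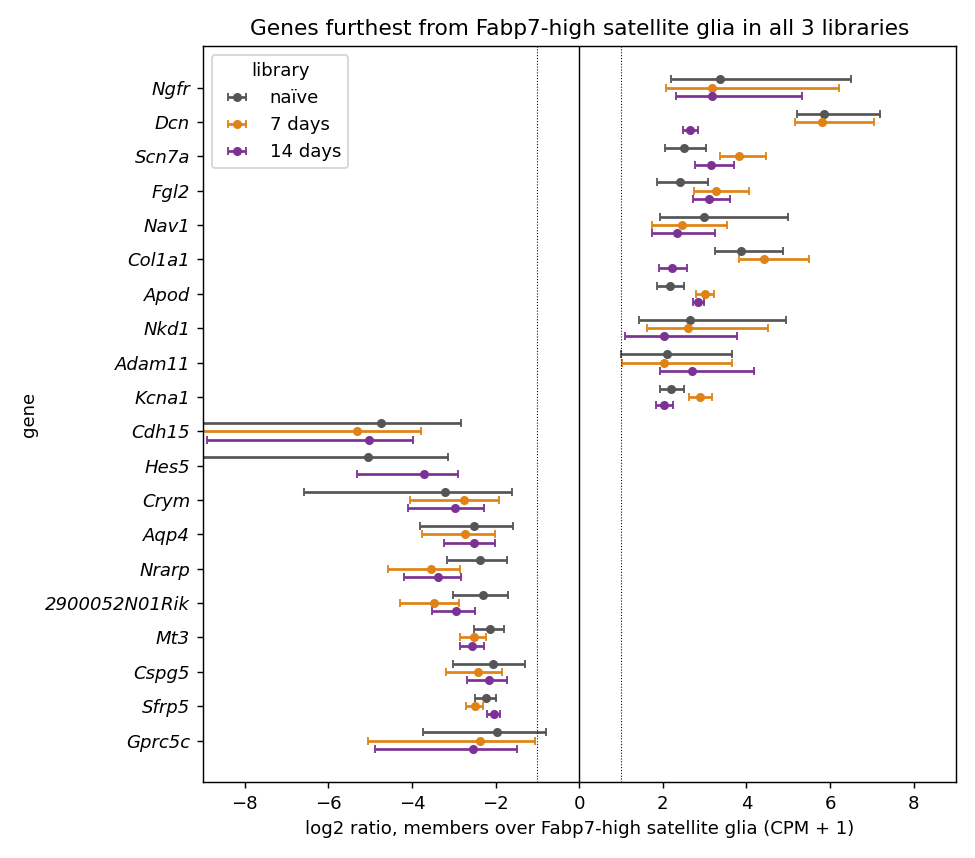
Log2 ratio of summed CPM plus 1 in members over Fabp7-high SGCs for the 10 highest and 10 lowest genes by the ratio closest to 0, with intervals of the ratio of raw UMIs that are cut at the axis limits and 1 colour per library. Every drawn point lies beyond the dotted 2-fold lines, up to Dcn at 5.85 in the naïve library, and Hes5 has no point at 7 days because members had 0 UMIs.

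Transcripts of satellite glia and of glia in general were present in members, and the levels of the SGC genes were compared with those in Fabp7-high SGCs. The median log2 ratio of members over Fabp7-high SGCs for the SGC genes was -0.51, -0.69 and -0.65, against 0.08, 0.08 and 0.07 over all genes that passed the filter. Kcnj10, the inward rectifier potassium channel gene, had 496, 489 and 491 CPM in members (intervals of 438 to 560, 447 to 535 and 457 to 527) and was present in 74.8%, 82.1% and 83.5% of them, but in 3.65% of naïve vascular cells. Fabp7-high SGCs had 573, 611 and 615 CPM of Kcnj10. The glutamate transporter gene Slc1a3 had 153, 130 and 135 CPM in members and 211, 190 and 179 CPM in Fabp7-high SGCs. The lineage transcription factor gene Sox10 had 563, 492 and 447 CPM, and it was slightly higher in members than in Fabp7-high SGCs (log2 ratio 0.52, 0.50 and 0.51). Of 8 general glial genes, 8 passed the filter and 0 differed 2-fold between members and Fabp7-high SGCs in all libraries. Of 12 SGC genes, 2 were 2-fold lower in members in all libraries, Fabp7, which the rule limited, and Glul.

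Members also held UMIs of genes that mark other cells. Any UMI of 6 fibroblast genes was found in 84 of 115, 145 of 168 and 229 of 254 members, and higher counts of such genes in fewer. Most of this was Col1a2, which had a UMI in 82, 139 and 226 members. Col1a2 was also present in 79.9%, 91.5% and 92.6% of Fabp7-high SGCs, so its presence does not set apart members with RNA of other cells. At least 3 Scn7a UMIs were found in 10 of 115 naïve members (8.70%), 24 of 168 at 7 days (14.3%) and 34 of 254 at 14 days (13.4%). At least 10 UMIs of 6 fibroblast genes were found in 5 (4.35%), 14 (8.33%) and 32 members (12.6%), against 0.990%, 8.50% and 12.6% of Fabp7-high SGCs. The summed level of the 6 fibroblast genes was 1102, 1389 and 2040 CPM, of which Col1a2 gave 494, 621 and 740 CPM. The sum of 7 macrophage genes was 3.79, 45.6 and 119 CPM, and that of 10 neuronal genes 89.0, 191 and 248 CPM. Of the 6 endothelial genes the defining 2, Pecam1 and Cdh5, were at 0 by the rule, and the list summed to 17.0, 13.2 and 17.2 CPM. A single 7-day member held 504 UMIs of 3 neutrophil genes, and another held 200 UMIs of 6 mural cell genes. Their part in the results below was not tested, except where values without such members are given.

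The next comparison addressed what differed in members between the naïve and the injured libraries. Of 7807 genes with a UMI in at least 10% of members of at least 1 library, 226 (2.89%) were at least 2-fold above naïve members at 7 days and 100 (1.28%) at least 2-fold lower. At 14 days 241 (3.09%) were higher and 110 (1.41%) lower. In both injured libraries 134 genes (1.72%) were higher and 30 (0.384%) lower, and since both ratios share the naïve library as denominator they are not independent. Fold changes are log2 ratios of summed CPM plus 1, which understate changes of low genes, and intervals are those of the ratio of raw UMIs. For 66 of the 134 and 26 of the 30 genes the interval lay away from 0 at both times. The median log2 ratio of the 134 genes was 1.35 and 1.44 in members, on which they were selected, and 0.24 and 0.34 in Fabp7-high SGCs. With genes present in at least 20% of members, 28 were higher and 8 lower in both.

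Genes linked to the reactive state of glia were among the highest in injured members. Serpina3n, a serine protease inhibitor gene induced in reactive astrocytes, had 8 UMIs in naïve members, 86 in 7-day members and 256 in 14-day members, or 15.2, 87.2 and 163 CPM. It was present in 5 of 115, 44 of 168 and 97 of 254 members (4.35%, 26.2% and 38.2%, thinned 2.52%, 17.8% and 26.7%), against 2.33%, 2.68% and 7.10% of vascular cells. Its log2 ratio was 2.45 (1.48 to 3.78) at 7 days and 3.34 (2.43 to 4.66) at 14 days. Naïve members had less of it than naïve Fabp7-high SGCs (48.6 CPM), in which the ratios were 1.22 and 2.36.

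Gfap, the intermediate filament gene used as a marker of reactive glia, remained a gene of few cells. It had a UMI in 1 of 115 naïve members (0.870%, 0.0220% to 4.75%), in 10 of 168 at 7 days (5.95%, 2.89% to 10.7%) and in 30 of 254 at 14 days (11.8%, 8.11% to 16.4%). The naïve and the 14-day interval did not overlap, and the naïve and 7-day intervals did. With 1, 17 and 64 UMIs its level was 1.89, 17.2 and 40.8 CPM, a log2 ratio of 2.65 (0.51 to 8.57) at 7 days and 3.85 (1.90 to 9.75) at 14 days. After thinning, 0.767%, 3.71% and 8.11% of members had a UMI. In Fabp7-high SGCs 0.990%, 2.00% and 6.52% of cells had a UMI, and in vascular cells 1 of 301, 0 of 224 (which allows up to 1.34% by the same floor) and 1 of 366. Without members with at least 3 Scn7a UMIs the log2 ratios were 1.85 and 3.22.

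Of 24 genes on a list of glial reactivity, 16 passed the filter, of which 5 were at least 2-fold higher at both times and 7 at 14 days, and 0 were at least 2-fold lower. The median of these 16 genes was 0.23 at 7 days and 0.61 at 14 days, beside medians of -0.0041 and 0.0027 over all 7807 genes. Stat3, a transcription factor that relays signals of the interleukin-6 family, was present in 37, 91 and 151 members and had log2 ratios of 0.998 (0.52 to 1.51), just under 2-fold, and 1.17 (0.72 to 1.67). The oncostatin M receptor gene Osmr had 3, 18 and 52 UMIs and ratios of 1.53 (-0.09 to 4.09) and 2.35 (0.92 to 4.87). Socs3, an inhibitor of the same pathway, differed at 14 days, with 8, 14 and 65 UMIs and ratios of -0.09 and 1.39 (0.39 to 2.72). Emp1, a membrane protein gene, had ratios of 1.40 and 1.16. The filament gene Vim, present in 113 of 115, 165 of 168 and 252 of 254 members, had ratios of 0.02 and 0.13.

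Gap43, a growth-associated gene of regrowing axons and of injured Schwann cells, had 2, 33 and 75 UMIs in 1, 21 and 29 members, with log2 ratios of 2.85 (1.17 to 6.25) and 3.35 (1.75 to 6.73). Vascular cells had 24.8, 303 and 342 CPM of it, more than the 3.79, 33.4 and 47.8 CPM of members, and its ratios in all other kept cells were 1.44 and 2.11. The neuronal genes Tubb3, Uchl1 and Prph were likewise at least 2-fold higher in both, and vascular cells had 440, 365 and 995 CPM of Tubb3 against 20.8, 50.7 and 80.9 CPM in members, 1 of which held 54 of the 127 UMIs at 14 days. By share of cells the order differed between libraries, with a Gap43 UMI in 0.870%, 12.5% and 11.4% of members and in 3.65%, 5.36% and 15.3% of vascular cells. What such RNA contributes to the difference between libraries was not tested.

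**Figure D4:**
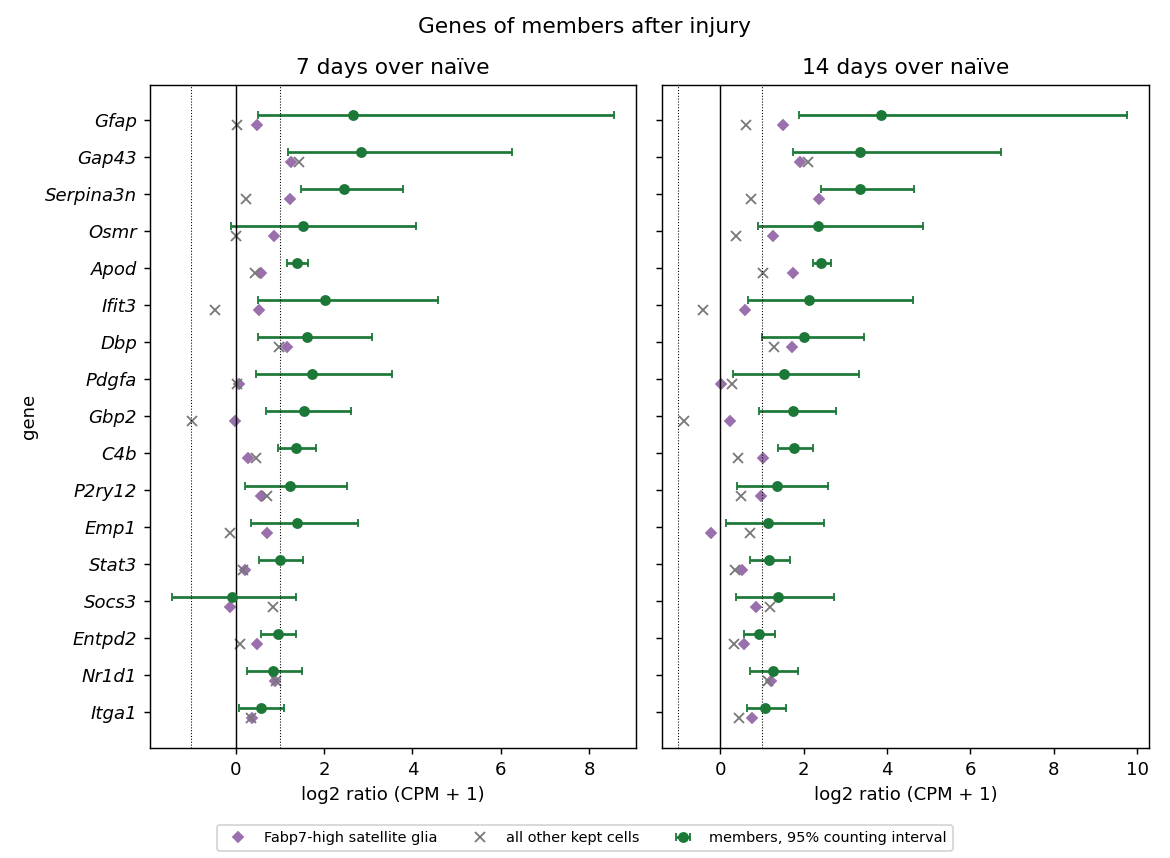
Log2 ratios over the naïve library at 7 and 14 days for 17 genes described in the text, in members (green, with intervals of the ratio of raw UMIs), Fabp7-high SGCs (purple) and all other kept cells (crosses). Serpina3n is at 2.45 and 3.34 in members and at 1.22 and 2.36 in Fabp7-high SGCs, and Socs3 is near 0 at 7 days only.

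Chemokine and interferon-related genes were higher in injured members in part. Cxcl10, an interferon-inducible chemokine gene whose upstream window holds 1 GAAANNGAA match, had 0 UMIs in 115 naïve members, 31 in 11 members at 7 days and 85 in 30 members at 14 days. Against a floor of 3 counts over the naïve members (5.68 CPM), its level of 31.4 CPM at 7 days was at least 5.53-fold higher. That of 54.2 CPM at 14 days was at least 9.53-fold higher, and both bounds leave out the counting error of the 31 and 85 UMIs. Naïve Fabp7-high SGCs had 15.4 CPM, and naïve vascular cells had 20.1 CPM, so Cxcl10 was not absent from the naïve library. The guanylate-binding protein gene Gbp2 had 12, 67 and 123 UMIs and ratios of 1.54 (0.68 to 2.60) and 1.74 (0.93 to 2.78), against -0.03 and 0.25 in Fabp7-high SGCs. Vascular cells had more Gbp2 than members in the naïve and 7-day libraries, at 104 and 89.0 CPM against 22.7 and 67.9 CPM. At 14 days the levels were alike, at 78.3 CPM in vascular cells and 78.4 CPM in members. The window before the Gbp2 start held 1 GAAANNGAA match as well. The interferon limit of the selection had by itself left out 20 naïve, 8 7-day and 10 14-day cells. What those cells held of Cxcl10 and Gbp2 was not tested, so the values in members depend on that limit.

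The interferon list as a whole did not share that direction. Of 19 genes, 15 passed the filter, and Gbp2 and Ifit3 were 2-fold higher and Ifi27l2a 2-fold lower at both times. The list's medians were 0.20 and 0.12. Ifi27l2a had 100, 76 and 98 UMIs, with ratios of -1.29 (-1.75 to -0.85) and -1.59 (-2.02 to -1.18). It and Ifit3 belong to the 7 genes whose sum the rule limits to under 10 UMIs a cell, so their levels in members are bounded by the selection. The complement gene C4b was widespread after injury, present in 30 of 115, 98 of 168 and 185 of 254 members, at 104, 272 and 361 CPM. Its ratios were 1.37 (0.96 to 1.83) and 1.78 (1.39 to 2.22), against 0.28 and 1.03 in Fabp7-high SGCs, and 3.65% to 7.92% of vascular cells had a UMI. Tap1, a transporter that loads peptides onto MHC class I, had 5, 14 and 46 UMIs, and the class I gene H2-D1 had ratios of -0.15 and 0.45.

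MHC class II genes were high at 14 days in few cells. Cd74, the invariant chain gene, had 2, 10 and 232 UMIs in 2, 4 and 29 members, 1 member at 14 days holding 86 of them. Its ratio at 14 days was 4.96, and without members with at least 10 fibroblast, or macrophage and MHC class II, UMIs it was 1.71. The direction was not particular to members. Cd74 had ratios of 5.24 and 4.15 in Fabp7-high SGCs, from 0.991 CPM when naïve, and of 1.49 and 1.72 in all other kept cells. A Cd74 UMI was present in 0.660%, 3.50% and 13.0% of Fabp7-high SGCs, against 1.74%, 2.38% and 11.4% of members. The macrophage genes C1qa, C1qb and Tyrobp, all at 0 in naïve members, had 72, 32 and 26 UMIs at 14 days. The part of these cells in the class II difference was not tested beyond that value.

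Apod, a lipocalin gene of glia and fibroblasts, was high in a few members. It had 186, 919 and 2981 UMIs in 26, 50 and 101 members, with ratios of 1.40 (1.17 to 1.64) and 2.43 (2.22 to 2.65). Without members with at least 3 Scn7a UMIs the ratios were 1.08 and 0.46, and without those with fibroblast, macrophage or MHC class II UMIs 0.27 and 0.58. At 14 days both of these values were under 2-fold.

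Genes of purine signalling and of growth factors gave smaller differences. P2ry12, an ADP receptor gene, had 9, 41 and 71 UMIs in 8, 32 and 57 members and ratios of 1.24 (0.22 to 2.51) and 1.36 (0.40 to 2.59), and 0.332%, 3.12% and 1.09% of vascular cells had a UMI. Entpd2, which encodes an ectonucleotidase that breaks down ATP, was present in 42.6%, 67.3% and 64.6% of members and had ratios of 0.95 and 0.94, just under 2-fold. Of 13 purinergic genes 5 passed the filter, P2ry12 was 2-fold higher in both and 0 were lower. Pdgfa, a growth factor gene, had 5, 33 and 46 UMIs and ratios of 1.72 (0.45 to 3.53) and 1.53 (0.30 to 3.32), against 0.08 and 0.01 in Fabp7-high SGCs. Of 24 trophic factor and cytokine genes, 4 passed, Pdgfa was higher in both, and 6 genes (Artn, Il6, Ntf3, Gdnf, Tnf and Cntf) had 0 UMIs in all members.

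Matrix and adhesion genes, to which several of the 8 markers belong, mostly stayed under 2-fold. Of 41 collagen genes 22 passed the filter, of which 17 had a ratio above 0 at each time, with medians of 0.26 and 0.35. Col14a1 was 2-fold higher at 7 days (4, 22 and 25 UMIs) and Col11a2 2-fold lower at 14 days (17, 19 and 22 UMIs). Col27a1 had 339, 481 and 431 CPM, and Col11a1 197, 226 and 198 CPM. Of 19 integrin genes 10 passed, and Itga1, the collagen receptor subunit gene, was 2-fold higher at 14 days (85.2, 127 and 182 CPM, ratio 1.09, 0.64 to 1.58). Itgb3 went the other way, at 275, 220 and 176 CPM, with ratios of -0.32 (-0.63 to -0.01) and -0.64 (-0.94 to -0.34). Col27a1, Col11a1 and Itgb3 are among the 8 markers that chose the members, so their levels in members depend on the selection. Of 30 laminin and other matrix genes 17 passed and 0 differed 2-fold, with medians of 0.14 and -0.01.

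Receptor genes also stayed mostly under 2-fold. Ednrb had ratios of 0.30 (0.19 to 0.41) and 0.05 (-0.06 to 0.15), and the endothelin genes Edn1, Edn2 and Edn3 had 0 UMIs in members, while the converting enzyme gene Ece1 had 195, 164 and 180 CPM. Lgr5 had ratios of 0.08 and -0.09, and Lgr4, a receptor of the same family, was at 504, 355 and 354 CPM with ratios of -0.51 and -0.51. Of 24 glutamate receptor genes 7 passed the filter, all 7 with a ratio above 0 at 14 days and a list median of 0.40. Gria4, an AMPA receptor subunit gene, was 2-fold higher at 14 days by a ratio of 1.10 (-0.08 to 2.69) whose interval included 0, and its ratio in Fabp7-high SGCs was -0.85. Gria3, another such gene, had 94.7, 132 and 161 CPM and a ratio of 0.76 (0.32 to 1.24) at 14 days, and Grik2 123, 180 and 153 CPM. The levels of Ednrb, Lgr5 and Grik2 in members depend on the selection too, because they are markers.

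All 12 listed heat shock genes passed the filter and had a ratio below 0 at both times, with medians of -0.43 and -0.58. At least 2-fold lower were 2 of them at 7 days and 3 at 14 days, with Hspa1a and Hsph1 at both. Hspa1a, an inducible chaperone gene whose upstream window holds 1 GAANNTTC match, had 145, 87 and 103 UMIs, or 275, 88.2 and 65.6 CPM, and ratios of -1.63 (-2.04 to -1.25) and -2.05 (-2.44 to -1.69). It was present in 49 of 115, 55 of 168 and 61 of 254 members. Hsph1, a co-chaperone gene, had ratios of -1.14 and -1.69, Hspa1b -0.97 and -1.07, and the constitutive chaperone gene Hspa8 -0.71 and -0.96.

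The 12 genes together took a median of 0.563% of the UMIs of a naïve member, 0.379% at 7 days and 0.347% at 14 days, with quartiles of 0.446% and 0.729% in the naïve library and of 0.282% and 0.432% at 14 days. The same direction was present outside the members. Hspa1a had ratios of -1.19 and -1.09 in Fabp7-high SGCs and of -1.26 and -1.48 in all other kept cells. Library and condition cannot be told apart here either.

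Genes of cholesterol synthesis were also lower. Of 22 genes 21 passed the filter, of which 18 had a ratio below 0 at 7 days and 20 at 14 days, with medians of -0.37 and -0.77. Only 1 of them passed 2-fold, Fdps, the farnesyl diphosphate synthase gene, with 92, 123 and 131 UMIs and ratios of -0.48 and -1.05 (-1.46 to -0.66). Msmo1 had ratios of -0.52 and -0.88 and Cyp51 of -0.58 and -0.93. The 22 genes summed to 3813, 3023 and 2458 CPM in members and 6333, 5529 and 5044 CPM in Fabp7-high SGCs, so that members were below Fabp7-high SGCs in each library. Apoe, which carries cholesterol between cells, had 24342, 17380 and 15698 CPM in members, with ratios of -0.49 and -0.63.

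**Figure D5:**
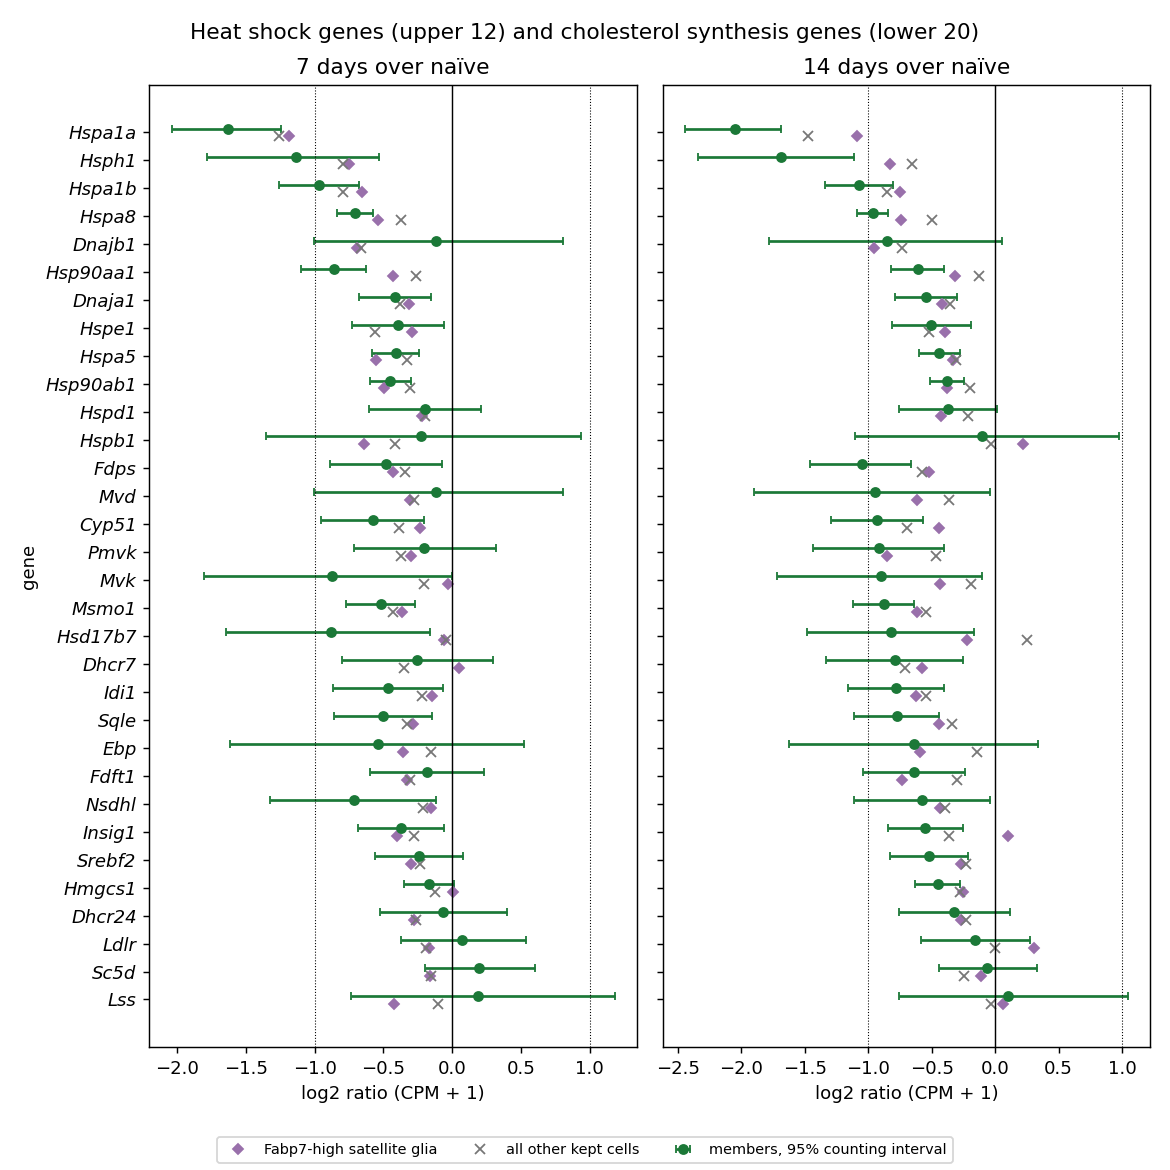
Log2 ratios over the naïve library at 7 and 14 days for 12 heat shock and 20 cholesterol synthesis genes in members (green, with intervals of the ratio of raw UMIs), Fabp7-high SGCs (purple) and all other kept cells (crosses). In members all 12 heat shock genes lie below 0 at both times, with Hspa1a lowest at -1.63 and -2.05, and 19 of the 20 cholesterol genes drawn lie below 0 at 14 days.

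Clock genes differed in both directions. Of 17 listed genes 12 passed the filter, and 3 of these were at least 2-fold higher and 4 at least 2-fold lower at 14 days. Dbp, an output gene of the circadian clock, had 7, 42 and 89 UMIs and ratios of 1.61 (0.51 to 3.08) and 2.02 (0.99 to 3.45), and Nr1d1, a repressor in the clock, ratios of 0.85 and 1.26. The core activator gene Arntl had 37, 33 and 45 UMIs and ratios of -1.05 and -1.26, and the repressor gene Cry1 15, 11 and 10 UMIs and ratios of -1.28 and -1.996. The direction of Dbp, Nr1d1 and Arntl was also present in Fabp7-high SGCs, with ratios at 14 days of 1.73, 1.22 and -1.31. In all other kept cells these were 1.30, 1.14 and -1.05. Cry1 differed less outside the members, with ratios of -0.28 and -0.43 in Fabp7-high SGCs and of -0.25 and -0.07 in all other kept cells.

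Immediate early genes, which respond rapidly to stimuli, were mostly slightly lower. Of 26 genes 13 passed, with medians of -0.12 and -0.32. Fos had 377, 314 and 215 CPM, with ratios of -0.26 and -0.80 (-1.06 to -0.55), and Jun 409, 376 and 292 CPM. Ier2 had a ratio of -1.42 at 14 days, and Zfp36 and Dusp1, feedback inhibitors of such signals, had ratios of -1.70 and -1.33 at 7 days. Egr3 itself had ratios of -0.74 (-1.08 to -0.41) and -1.11 (-1.43 to -0.79), and -1.30 and -0.94 in Fabp7-high SGCs. As a marker, its level in members depends on the selection. Egr1 had ratios of -0.65 and -0.44 in members and of 0.20 and 0.41 in Fabp7-high SGCs. In naïve cells Fos was higher in members than in Fabp7-high SGCs (log2 ratio 1.22, then 0.73 and 0.59 after injury).

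Among genes of coupling and of homeostasis, Gja1, the connexin 43 gene, was lower at 14 days. It had 195, 148 and 116 CPM and ratios of -0.40 (-0.77 to -0.02) and -0.75 (-1.11 to -0.39), under 2-fold. The lower level at 14 days was also present outside the members. Gja1 had ratios of 0.08 and -0.48 in Fabp7-high SGCs and of -0.21 and -0.96 in all other kept cells. Gjc3 had ratios of 0.11 and 0.22, and 2 of the 8 listed connexin and pannexin genes passed the filter. Of 16 potassium and glutamate genes 11 passed and 0 differed 2-fold, with medians of -0.05 and -0.04. In the Notch list 1 gene was 2-fold lower at both times, Nrarp (18, 13 and 21 UMIs), and the ligand gene Jag1 had 96, 115 and 142 UMIs with ratios of -0.64 and -0.999 (-1.39 to -0.62).

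Most of the remaining genes given here by the size rule rested on few naïve UMIs. On the higher side Msh3 and Lpcat2 had 1 naïve UMI each, and Med16, Gk5 and Mrgprf had 2 each. At 14 days Msh3 had 28 UMIs, Med16 34, Gk5 40 and Mrgprf 30, and the ratios of these 4 genes in Fabp7-high SGCs at 14 days ran from 0.28 to 0.40. Ago4 had 0 UMIs in naïve members and 19 and 24 after injury, with ratios of 0.07 and 0.45 in Fabp7-high SGCs. Against the naïve floor its levels were at least 3.39-fold and 2.69-fold higher, bounds that leave out the counting error of the 19 and 24 UMIs. On the lower side Tmem86b had 12, 5 and 5 UMIs, Tradd 14, 6 and 13, Cntrob 14, 6 and 12, Tmem98 18, 12 and 18, Ephb1 13, 8 and 14, Mthfd2 19, 13 and 21, and Psmg2 18, 13 and 19. Ogfod1 (10, 3 and 29 UMIs) and Nop16 (19, 9 and 28) were lowest at 7 days, and Brsk2 (33, 34 and 26) and Tomm6 (34, 30 and 27) at 14 days. With 115 naïve members such genes are at the limit of what this depth can show.

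Some genes described above were found together in part of the members, and whether this sets apart kinds of members was not tested. Of the 97 members with Serpina3n at 14 days, 18 also had Gfap and 14 also had Cxcl10. That is 60% of the 30 members with Gfap and 46.7% of the 30 members with Cxcl10, beside 97 of all 254 members. At 7 days 6 of the 10 members with Gfap had Serpina3n, beside 44 of all 168 members, and 0 of the 10 had Cxcl10. Gfap and Cxcl10 were found together in 5 members at 14 days. Members with Serpina3n were deeper than those without it, with median UMIs of 6931 against 4641.5 at 7 days and 6055 against 4900 at 14 days, and cells of 1 library are not replicates. Of the 29 members with Gap43 at 14 days, 9 had Serpina3n. In the naïve library 35 of the 49 members with Hspa1a also had Hspa1b (71.4%), compared with 34 of 61 at 14 days (55.7%).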

How the data were processed

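Per the submitters' processing notes, the files were made with Cell Ranger 3.0.2 on mm10. The deposited values are UMI counts, whole numbers that the authors did not normalize, for barcodes already called as cells. The annotation, and whether reads were downsampled on aggregation, are not given in the sources used here.

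All 31053 genes were read with scipy 1.17.1 and pandas 2.3.3. The members and the 36 gene lists, and a further Notch list of 21 genes, were chosen with earlier results of these data known. UMIs of members were summed per library, and ratios used CPM with a pseudocount of 1 CPM among genes with a UMI in at least 10% of members of at least 1 library. A gene was called at 2-fold. With 1 library per condition there was no test. Intervals at 95% were exact: Clopper-Pearson for shares, Poisson for CPM and conditional binomial for ratios. A count of 0 was given a floor of 3 counts. Genes were named by size: up to 10 in each direction past 2-fold in both injured libraries, the 5 highest and 5 lowest at each time, and the 10 highest and 10 lowest against Fabp7-high SGCs, beside the markers and the list genes. Mitochondrial, ribosomal protein and Gm genes were left out of that rule, and some genes are not reported here. Thinned shares of cells with a UMI are expected values at 3000 UMIs, and thinned shares of members come from 1 seeded draw. Doublets were kept in the main setting. Scrublet (scanpy 1.11.5, expected rate 5%) called 90 of 9662 cells (0.931%), of which 4 were members, and leaving them out was an alternative. TMM factors came from edgeR 4.0.16. Other alternatives covered the cell filter, the markers, the Fabp7 limit, the pseudocount and the weighting of cells. The gene table was tested on simulated data. Per-cell depth limits precision: naïve members held 527968 UMIs, 7-day members 986804 and 14-day members 1569447.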

Additional observations from a re-analysis of the deposited data

Results flagged for a closer look

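For 2 genes the difference from the naïve library was past 2-fold, with a counting interval away from 0, in opposite directions in members and in Fabp7-high SGCs. The difference was not tested, and both are genes with few UMIs. Fbxl6 at 7 days had a log2 ratio of 1.67 in members and -1.16 in Fabp7-high SGCs. Noc3l at 14 days had a log2 ratio of -1.10 in members and 1.20 in Fabp7-high SGCs. Groups of 1 library could not be searched for outlying samples.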

How the results depend on the processing

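The higher share of members in both injured libraries depended on the cell filter. Under the strict filter (1000 or more genes, no more than 10% mitochondrial UMIs) members made up 1.56% of naïve, 1.48% of 7-day and 1.17% of 14-day cells. They were 4.70% (naïve) and 8.07% (14 days) with at least 2 markers, 2.89%, 5.18% and 5.56% with at least 4, 12.0%, 13.3% and 12.1% without an upper Fabp7 limit, and 5.71%, 7.99% and 8.98% in cells thinned to 3000 UMIs. Without members with at least 3 Scn7a UMIs they were 5.37% at 7 and 5.75% at 14 days, and without those with fibroblast, macrophage or MHC class II UMIs 5.72% at 14 days. Both of the last alternatives were chosen after seeing the data. Of 30 shares under alternatives, 13 moved by less than their interval.

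Counts of genes at least 2-fold from naïve are given in the order higher and lower at 7 days, higher and lower at 14 days, higher and lower in both, where the values above were 226, 100, 241, 110, 134 and 30. The strict cell filter, which left 16 to 21 members a library, gave 2000, 1748, 1919, 1466, 1040 and 543. No filter on low values gave 2375, 1060, 1954, 832, 1226 and 455. A pseudocount of 5 CPM gave 120, 51, 137, 65, 68 and 19, genes in at least 20% of members gave 39, 17, 55, 34, 28 and 8, and no upper Fabp7 limit gave 36, 6, 82, 26, 26 and 5. No cell filter gave 143 higher and 48 lower at 7 days, 145 higher at 14 days, and 82 and 18 in both. Weighting each cell equally gave 349 and 178 at 7 days, 176 lower at 14 days, and 203 and 51 in both. At least 2 markers gave 148 higher at 7 days, and at least 4 markers 162 lower at 7 days and 50 lower in both. Against Fabp7-high SGCs, 47 genes were higher, 24 with genes in at least 20% of cells, 121 against Fabp7-high SGCs with at most 2 markers, 23 after thinning, and 27 without members with at least 3 Scn7a UMIs. TMM scaling kept all 6 counts within 1.5 times. For changes other than those that follow from fewer cells or other genes entering, the cause was not tested.

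Medians of the heat shock and cholesterol synthesis lists, the only lists recomputed, kept their direction and moved by less than 1.5 times in 56 of 56 cases. Of 2266 values of single genes, 9 changed direction from a ratio of at least 2-fold in a gene that passed the filter. Smaller ratios that changed direction were not counted. Col1a1 at 14 days, for example, went from 0.63 to -1.28 without members with at least 3 Scn7a UMIs. Under the strict cell filter the counted values were Gap43 (-0.0174) and Pdgfa (-0.0174) at 14 days, and Cd74 (-3.53) and Dusp1 (1.97) at 7 days. Cd74 at 7 days was also -0.23 without Scrublet calls, -0.65 without members with at least 3 Scn7a UMIs and -0.18 without those with fibroblast, macrophage or MHC class II UMIs. Without members with at least 3 Scn7a UMIs, Dcn at 14 days was -0.80 and H2-Aa at 7 days -0.22. No paired analysis was possible because there was 1 library per condition, and for the same reason no replicate could be left out. Depth limits genes with few UMIs most.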

Other observations

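Genes of fatty acid metabolism, of the cell cycle and of Wnt signalling were largely level in members. Of 18 fatty acid genes 17 passed the filter and 0 were 2-fold from naïve at either time. The desaturase gene Scd2 had 2899, 6008 and 8873 UMIs in the naïve, 7-day and 14-day library, with log2 ratios of 0.15 and 0.04, and Fads1, a desaturase of polyunsaturated fatty acids, had ratios of 0.29 (0.03 to 0.54) and 0.49 (0.26 to 0.74). Of 22 Wnt and R-spondin pathway genes 10 passed and 0 were 2-fold from naïve. Of 18 cell cycle genes 7 passed, and Mcm6, a helicase subunit gene, was 2-fold higher at 14 days with 4, 14 and 31 UMIs (ratio 1.27, -0.12 to 3.35), an interval that includes 0. Cdkn1a, an inhibitor of the cell cycle, had ratios of -0.74 (-1.20 to -0.29) and -0.41 (-0.81 to -0.02).

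Of 16 genes of repair Schwann cells 7 passed the filter, Gap43 was 2-fold higher in both injured libraries and 0 genes were lower. The adhesion gene Ncam1 had 543, 1025 and 1582 UMIs, with log2 ratios of 0.01 and -0.03. Runx2, a transcription factor gene of the same list, had 5, 21 and 35 UMIs and did not reach the filter, with a UMI in 4.35%, 8.93% and 8.27% of members.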
